A study of Mus musculus with 18 samples.

Results

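The early B lymphoid programme is described here by 10 genes that bone marrow progenitors switch on as they enter the B cell pathway: the transcription factor genes *Ebf1*, *Pax5* and *Foxo1*, the recombination genes *Rag1*, *Rag2* and *Dntt*, the surrogate light chain genes *Vpreb1* and *Igll1*, and the receptor subunit genes *Cd79a* and *Cd79b*. They were taken by symbol from the 3 expression tables, which list 19919 genes between them, and all 10 were found in each table. RNA-seq had been performed on multipotent progenitors (MPPs), the CD115- subset of common dendritic cell progenitors (CD115- CDPs) and common lymphoid progenitors (CLPs), sorted from the bone marrow of C57BL/6 mice 6 to 8 weeks old, with 3 biological repeats for each of 6 groups and 18 libraries in all. WT mice were *Trim33* fl/fl. KO mice were *Trim33* fl/fl with Cre-ERT2, a recombinase that tamoxifen activates, and carried a deletion of exons 2 to 4 of *Trim33*. Per the study's methods, tamoxifen was given for 5 days at 2 mg a day and the mice were kept for 7 more days. Cre-ERT2 is not restricted to the sorted cells, so other tissues could lose *Trim33* too. The study asked how loss of TRIM33 changes progenitors that give rise to dendritic cells, and the same libraries show what the early B lymphoid genes did. Values are FPKM, in which the fragments of a gene are divided by the length of its transcript and by the mapped fragments of the library, so that genes can be compared with each other.

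B cell development from lymphoid progenitors depends on a small network of transcription factors. FOXO1 and E proteins act upstream of EBF1, and EBF1 turns on *Pax5* and many genes of the B cell receptor. RAG1 and RAG2 together cut the immunoglobulin genes, and terminal deoxynucleotidyl transferase (TdT, the product of *Dntt*) adds nucleotides at the joins. VPREB1 and IGLL1 (λ5) form the surrogate light chain, which pairs with the newly made heavy chain, and CD79A and CD79B carry the signal of this pre-B-cell receptor into the cell. *Dntt* and the *Rag* genes are already transcribed in early lymphoid progenitors, before commitment to the B cell lineage.

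The genes lie on 7 chromosomes of GRCm38, the build of mm10. *Rag2* (chromosome 2, 101624712 to 101632528) and *Rag1* (chromosome 2, 101638252 to 101649532) are neighbours, as are *Igll1* (chromosome 16, 16860671 to 16863985) and *Vpreb1* (chromosome 16, 16868401 to 16869255). RefSeq promoter windows of GRCm38.p6, from 250 bases before to 50 after the start of a gene, were found for 9 of the 10 genes, and 3 motifs were searched in them on both strands. The E box CAGGTG, a sequence that E proteins can bind, was present in the windows of 4 genes (*Rag1*, *Vpreb1*, *Igll1* and *Cd79a*) and in 20.2% of all 32851 windows. The EBF palindrome CCCNNGGG was present in the windows of 2 genes (*Foxo1* and *Igll1*) and in 13.7% of all windows. The forkhead sequence GTAAACA was present in none of them and in 3.6% of all windows. The windows of *Rag1*, the member called higher in CLPs labelled KO, and of *Igll1* and *Vpreb1*, neighbours whose levels moved together, are shown 5′ to 3′ on the strand of the gene, with motif matches in capitals (E box matches read CAGGTG or, on the other strand, CACCTG). They span chr2:101649483-101649782, chr16:16863936-16864235 and chr16:16869206-16869505, all on the minus strand. The capitals of *Rag1* begin 135 bases before its start, those of *Vpreb1* 88 bases before, and those of *Igll1* 231 bases (EBF palindrome) and 8 bases (E box) before.
Rag1 promoter window: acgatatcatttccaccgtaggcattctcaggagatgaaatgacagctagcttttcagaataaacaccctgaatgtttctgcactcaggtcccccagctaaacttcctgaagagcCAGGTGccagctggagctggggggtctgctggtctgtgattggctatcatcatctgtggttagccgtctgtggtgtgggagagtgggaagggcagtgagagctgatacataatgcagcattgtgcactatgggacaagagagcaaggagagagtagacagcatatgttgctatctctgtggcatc
Igll1 promoter window: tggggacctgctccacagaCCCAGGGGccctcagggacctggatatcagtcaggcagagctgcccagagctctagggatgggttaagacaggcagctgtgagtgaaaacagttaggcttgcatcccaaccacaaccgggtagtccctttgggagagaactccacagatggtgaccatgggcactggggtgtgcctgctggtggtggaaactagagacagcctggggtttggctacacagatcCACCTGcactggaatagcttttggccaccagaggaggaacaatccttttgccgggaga
Vpreb1 promoter window: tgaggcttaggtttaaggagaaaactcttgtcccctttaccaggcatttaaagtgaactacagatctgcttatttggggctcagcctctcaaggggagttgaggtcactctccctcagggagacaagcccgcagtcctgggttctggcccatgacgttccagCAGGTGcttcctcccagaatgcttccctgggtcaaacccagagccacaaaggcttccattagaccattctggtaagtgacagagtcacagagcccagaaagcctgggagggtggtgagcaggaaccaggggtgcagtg
*Vpreb1* has a near copy, *Vpreb2*, elsewhere on chromosome 16. Of the 50-base stretches of the *Vpreb1* transcript, the length of a read, 32.5% also occur in *Vpreb2*, so the values of this pair depend on how reads were divided between them. The share was 8.3% for *Cd79a*, with the gene model *Gm32220*, and at most 0.5% for the other members.

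Depth, estimated from the smallest steps between FPKM values, was 19.2 to 21.2 M mapped reads per library, so that a single read added 0.0242 to 0.0267 FPKM to a transcript of 2000 bases. *Trim33* itself was examined as the deleted gene. In MPPs it was 10.4, 10.1 and 8.78 FPKM in WT libraries and 9.71, 11.7 and 4.80 FPKM in the libraries labelled KO. In CD115- CDPs the values were 14.3, 15.2 and 8.27 FPKM in WT and 9.64, 8.28 and 4.03 FPKM in the libraries labelled KO. In CLPs they were 12.4, 7.01 and 8.86 FPKM against 7.52, 5.60 and 7.66 FPKM. The genotypes overlapped in all 3 populations, and in MPPs the libraries labelled KO 1 and KO 2 lay within or above the range of WT. Each KO library was below the WT library of the same number in CD115- CDPs (adjusted p = 0.026 with the replicate number as a block, against 0.528 without) and in CLPs (0.073 with it, 0.255 without). The values are for the whole gene, and the share of its reads that fall in exons 2 to 4 was not measured. How well its FPKM checks the deletion is therefore not known.

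The sorted populations were checked against their markers. *Il7r*, which encodes CD127 and is used to sort CLPs, reached 32.6 to 63.0 FPKM in WT CLPs, and *Flt3* was at least 147 FPKM in all 18 libraries. The CD115- CDP gate leaves out CD115 and CD127, yet *Csf1r*, the gene of CD115, was 57.0, 39.1 and 137 FPKM in WT CD115- CDPs and 11.45, 9.24 and 37.2 FPKM in those labelled KO, and *Il7r* was 20.6, 13.9 and 5.34 FPKM against 11.3, 8.21 and 3.17 FPKM. Of the mature B cell markers, *Ms4a1* (CD20) and *Cr2* (CD21) stayed below 0.5 FPKM in every library and *Fcer2a* (CD23) in every library of CLPs. These genes are not the whole list, so the absence of mature B cell transcripts is not shown.

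Some libraries stand apart in the members. In CD115- CDPs the libraries numbered 3 were the lowest of their genotype for 9 members in WT (all but *Cd79b*) and 8 in KO (all but *Rag2* and *Cd79b*), and the same 2 libraries had far more neutrophil granule transcripts. *Mpo*, the myeloperoxidase of granules, was 1686 and 2117 FPKM in them and 248 to 352 FPKM in the other 4. In CLPs the library numbered 1 was the lowest of its genotype for 8 members in WT and 10 in KO. In MPPs the library labelled KO 3 differed from KO 1 and KO 2 in *Rag1*, *Rag2*, *Foxo1* and *Dntt*. Results are therefore given with and without these libraries. WT and KO libraries with the same number tended to deviate together in CD115- CDPs and, more weakly, in CLPs. A fit with the replicate number as a block was therefore made beside the one without.

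**Figure D1:**
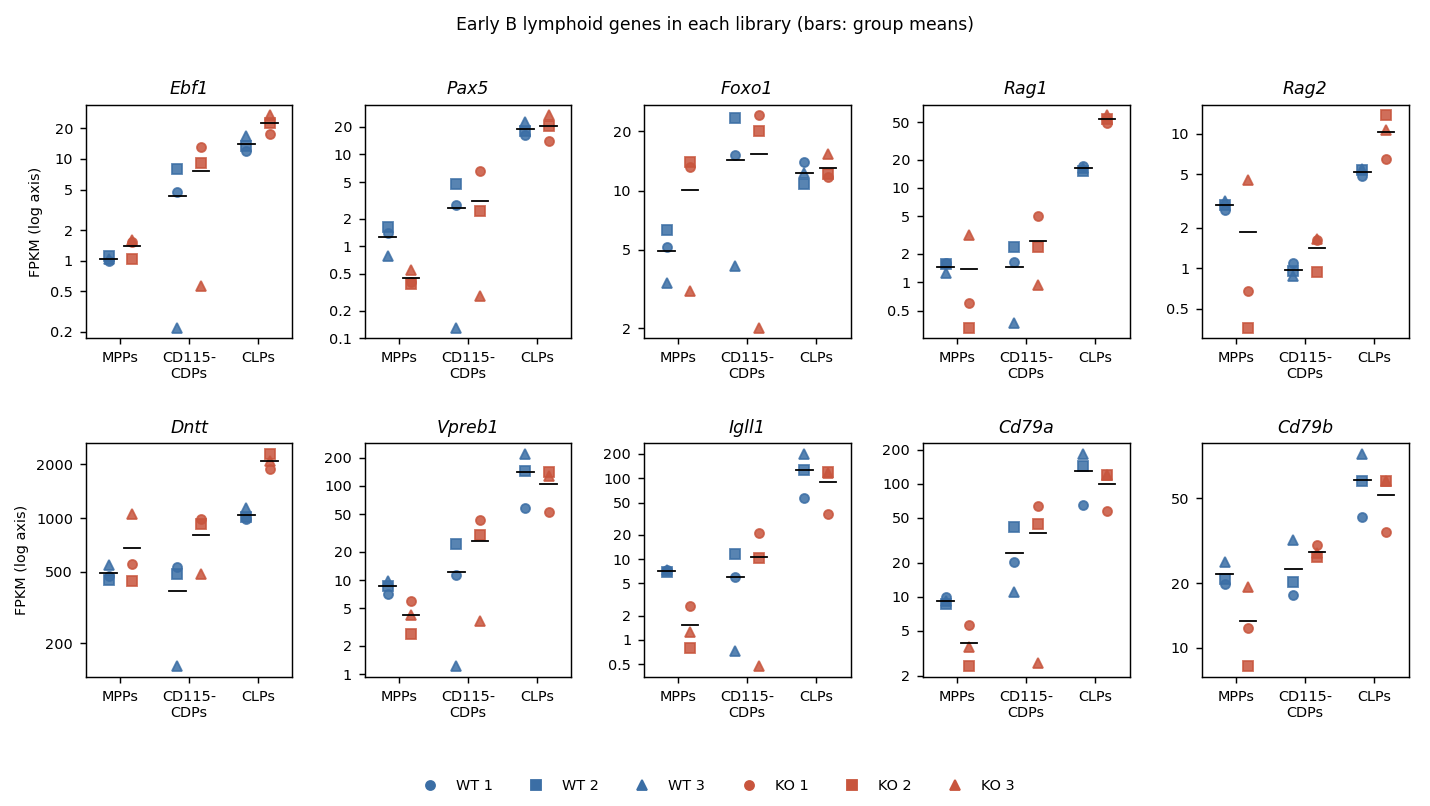
FPKM of the 10 genes (log axis) in each of the 18 libraries, with blue for WT, red for libraries labelled KO, a symbol for each replicate number and a bar for each group mean. *Rag1*, *Rag2*, *Dntt* and *Ebf1* of CLPs labelled KO lie above all WT values, the genes of the surrogate light chain and CD79 spread by number in CLPs, and the triangles (number 3) lie low in CD115- CDPs.

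In CLPs *Rag1* was called higher in the libraries labelled KO, *Dntt* and *Rag2* were higher under the minimum fold, and no gene of the pre-B-cell receptor was called. *Rag1* was 16.98, 15.2 and 16.3 FPKM in WT and 48.4, 54.4 and 58.8 FPKM in KO. It rose 3.33-fold, from 16.2 ± 0.884 to 53.9 ± 5.23 FPKM (mean ± SD, n = 3 each), and was the only member called (log2 fold change 1.67, SE 0.106, adjusted p = 2.5e-05). To be called, a gene had to pass limma's test at an adjusted p of 0.05 or less and to change by 1 or more, up or down, on the log2(FPKM + 1) scale, on which folds of weakly transcribed genes are understated. By this rule 0.673% of the 12339 genes tested in CLPs were called higher and 2.84% lower, against 1 and 0 of the 10 members, all of which passed the filter on low values. *Rag1* was called without any 1 of the 6 libraries and without both libraries numbered 1 (log2 fold changes from 1.61 to 1.78), when 0.908% of all genes were called higher and 3.06% lower. In bulk samples like these, fewer cells that transcribe a gene and less RNA per cell cannot be told apart.

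*Dntt* was the most abundant member everywhere. In CLPs it was 989, 1012 and 1135 FPKM in WT and 1891, 2277 and 2090 FPKM in KO. Its lowest KO library lay well above its highest WT library. The log2 fold change of 0.99 (SE 0.133, adjusted p = 0.0018) fell just short of the minimum, and it was called without WT 3 (1.06), without KO 1 (1.06) or without both libraries numbered 1 (1.02). *Rag2*, which works with *Rag1*, was 4.81, 5.42 and 5.48 FPKM in WT and 6.50, 13.7 and 10.8 FPKM in KO. The groups did not overlap, although KO 1 was only a little above WT (log2 fold change 0.81, SE 0.224, adjusted p = 0.047). It was called without KO 1 (log2 fold change 1.08, adjusted p = 0.0049) and without both libraries numbered 1 (1.03, adjusted p = 0.0044), while the adjusted p was between 0.081 and 0.147 without any 1 of the other 5 libraries. It was 0.109 with no filter on low values, 0.051 with median ratio scaling and 0.010 with the replicate block.

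Of the transcription factor genes, *Ebf1* was 12.1, 13.5 and 16.7 FPKM in WT CLPs and 17.7, 22.5 and 26.8 FPKM in KO. All KO values were above all WT values (log2 fold change 0.62, SE 0.170, adjusted p = 0.044, or 0.0039 with the replicate block). The adjusted p was above 0.05 without WT 1 (0.080), WT 2 (0.137), KO 2 (0.116) or KO 3 (0.147), with no filter on low values (0.091) and with median ratio scaling (0.059). Without both libraries numbered 1 it was 0.022 at a log2 fold change of 0.67. *Pax5*, which EBF1 activates, was 16.3, 17.8 and 22.7 FPKM against 13.9, 20.2 and 26.6 FPKM. *Foxo1* was 13.97, 10.9 and 12.3 FPKM against 11.7, 12.2 and 15.4 FPKM. Both genes overlapped between genotypes, with 95% intervals of the log2 difference from -0.44 to 0.56 for *Pax5* and -0.25 to 0.39 for *Foxo1*. Without both libraries numbered 1 their log2 fold changes were 0.20 and 0.23 (adjusted p = 0.443 and 0.298). With the minimum fold dropped and the limit on the adjusted p kept, 4 members were higher (*Rag1*, *Dntt*, *Rag2* and *Ebf1*) and none lower by limma (none lower at an unadjusted p under 0.05 either), where 5.41% of all genes tested were higher and 8.92% lower. The same 4 members had every KO library above every WT library, as did 15.3% of all genes, and none had every KO library below, as did 18.6%.

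The surrogate light chain and CD79 genes differed more between replicate numbers than between genotypes in CLPs, and none was called. *Vpreb1* was 58.4, 142 and 218 FPKM in WT CLPs and 52.3, 139 and 126 FPKM in KO. *Igll1* was 57.2, 126 and 199 FPKM in WT and 36.1, 119 and 116 FPKM in KO. In both genes number 1 was lowest in either genotype and WT 3 was highest. *Cd79a* was 64.1, 143 and 182 FPKM in WT and 57.6, 119 and 119 FPKM in KO. *Cd79b* was 41.0, 60.2 and 80.4 FPKM in WT and 34.8, 60.1 and 60.3 FPKM in KO. For all 4 genes the KO library was below the WT library of the same number in 3 of 3 pairs, at ratios from 0.579 to 0.998. Without the block their adjusted p were 0.580 to 0.714. With it, *Igll1* reached an adjusted p of 0.039 at a log2 fold change of -0.50, under the minimum for a call, and *Cd79a*, *Vpreb1* and *Cd79b* had 0.070, 0.157 and 0.197. Without both libraries numbered 1 the log2 fold changes were -0.42 for *Igll1*, -0.41 for *Vpreb1*, -0.43 for *Cd79a* and -0.21 for *Cd79b* (adjusted p from 0.067 to 0.354).

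**Figure D2:**
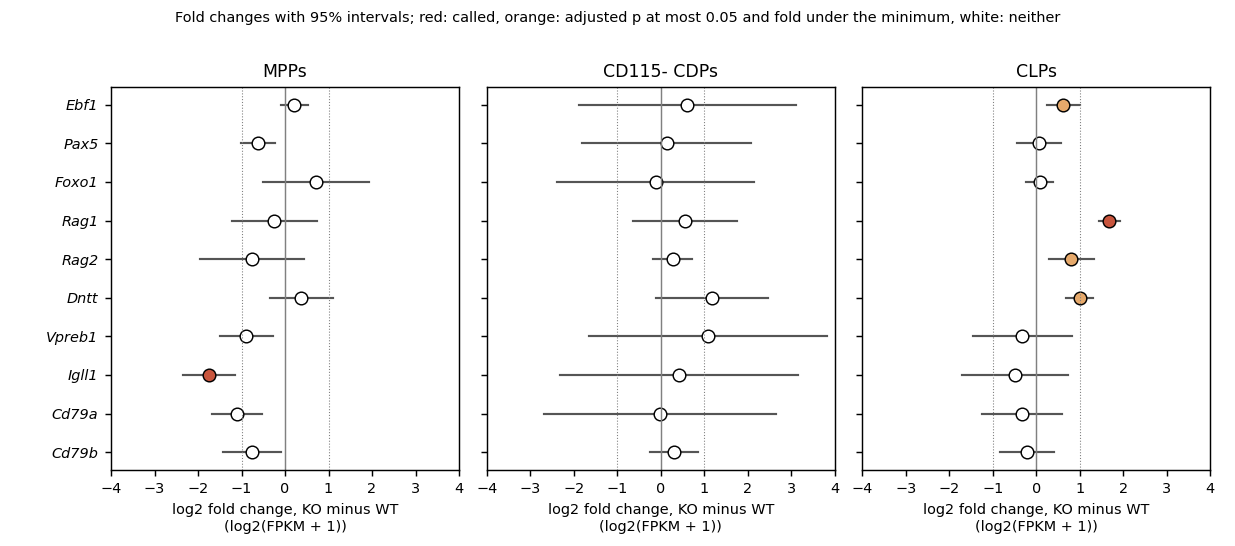
Log2 fold changes of the 10 genes, KO minus WT on log2(FPKM + 1), with 95% intervals from limma for each population and dotted lines at the minimum fold for a call. *Igll1* in MPPs (-1.75) and *Rag1* in CLPs (1.67) are the red, called points, orange points passed the test under the minimum fold, and the intervals of CD115- CDPs are wide.

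In MPPs *Igll1* was lower in the libraries labelled KO, and the other genes of the pre-B-cell receptor had lower means without passing the test. *Igll1* was 7.34, 6.92 and 7.23 FPKM in WT and 2.59, 0.79 and 1.24 FPKM in KO. WT libraries were within a narrow range and all KO libraries far below it (log2 fold change -1.75, SE 0.253, adjusted p = 0.020). It was the only member called, 1 lower and 0 higher of 10, where 1.32% of the 12372 genes tested were called lower and 0.162% higher. The call was lost without WT 1 (adjusted p = 0.124), WT 2 (0.110), WT 3 (0.120) or KO 2 (0.053), at log2 fold changes from -1.77 to -1.53. The median of all genes in MPPs was -0.11, and scaling by median ratios moved it to -0.01 with *Igll1* still called.

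*Vpreb1* was 7.14, 8.70 and 9.85 FPKM in WT MPPs and 6.03, 2.65 and 4.22 FPKM in KO (adjusted p = 0.110). *Cd79a* was 9.86, 8.59 and 9.11 FPKM in WT and 5.64, 2.42 and 3.60 FPKM in KO (adjusted p = 0.060). *Cd79b* was 19.96, 21.0 and 25.3 FPKM in WT and 12.4, 8.19 and 19.3 FPKM in KO (adjusted p = 0.172). In each of these genes every KO library lay below every WT library, with KO 2 the lowest. The same held for *Pax5*, at 1.40, 1.63 and 0.78 FPKM in WT and 0.41, 0.39 and 0.55 FPKM in KO (adjusted p = 0.093). With *Igll1*, 5 members thus had all KO libraries below all WT libraries and 0 above, where 23.3% of all genes tested were below and 6.98% above.

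Of the other 5 members, 4 split the MPP libraries labelled KO. *Rag2* was 2.70, 2.93 and 3.16 FPKM in WT and 0.67, 0.36 and 4.5 FPKM in KO. *Rag1* was 1.59, 1.55 and 1.27 FPKM in WT and 0.61, 0.33 and 3.20 FPKM in KO. For both, KO 1 and KO 2 lay below all WT libraries and KO 3 above them. *Foxo1* went the other way, at 5.15, 6.32 and 3.41 FPKM in WT and 13.2, 13.9 and 3.08 FPKM in KO, so that KO 1 and KO 2 were high and KO 3 was at the low end. *Dntt* was 475, 453 and 549 FPKM in WT and 551, 444 and 1053 FPKM in KO, with KO 3 alone far above WT. *Ebf1* stayed between 1.0 and 1.59 FPKM in all 6 libraries. *Il7r*, the receptor gene of the cytokine that supports B cell progenitors, was likewise below WT in KO 1 and KO 2 and above it in KO 3, at 1.89, 1.97 and 8.41 FPKM in KO against 5.27 to 5.87 FPKM in WT. Without KO 3, 5 members were called: *Igll1* (log2 fold change -1.69), *Rag2* (-1.38), *Cd79a* (-1.09) and *Cd79b* (-1.05) lower, and *Foxo1* (1.32) higher, where 914 genes were called in all against 183 with it (2.96% of all genes higher and 4.43% lower). Under the minimum fold, *Vpreb1* (-0.91, adjusted p = 0.035), *Rag1* (-0.75, 0.0047) and *Pax5* (-0.68, 0.021) also passed the test as lower without KO 3. *Ebf1* (0.15, 0.335) and *Dntt* (0.01, 0.941) did not pass. The shares of 2.96% and 4.43% count calls with the minimum fold, so they are not a background for genes that passed under it. Without KO 1, *Igll1* and *Cd79a* (-1.36) were called lower, where 20 of the 12372 genes tested were called higher and 124 lower. KO 3 was also the only KO-labelled MPP library whose *Trim33* was below WT.

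In CD115- CDPs no member differed between genotypes beyond the spread of the libraries in the fit without the block, and none of the 10 was called by limma, where 5 of all 12229 genes tested were called higher (0.0409%) and 8 lower (0.0654%). None of the members had an unadjusted p under 0.05, while *Dntt* came closest. *Dntt* was 536, 484 and 148 FPKM in WT and 986, 925 and 488 FPKM in KO. In each number the KO library was the higher one, by 1.84, 1.91 and 3.29 times, and with the replicate block *Dntt* was called (log2 fold change 1.17, SE 0.170, adjusted p = 0.020, against 0.512 without the block). With the block 0.376% of genes were called higher and 1.46% lower, and *Dntt* was the only member. Without both libraries numbered 3 its log2 fold change was 0.90 (adjusted p = 0.023), under the minimum.

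*Vpreb1* was 11.3, 23.96 and 1.21 FPKM in WT CD115- CDPs and 43.8, 30.2 and 3.63 FPKM in KO. *Ebf1* was 4.75, 8.04 and 0.22 FPKM in WT and 13.1, 9.11 and 0.57 FPKM in KO. In both genes KO was higher in 3 of 3 pairs and number 3 was lowest in either genotype, but neither passed the test with the block (adjusted p = 0.058 and 0.137). The other transcription factor and light chain genes were also lowest in number 3. *Igll1* was 5.98, 11.4 and 0.72 FPKM against 21.1, 10.2 and 0.47 FPKM. *Pax5* was 2.82, 4.81 and 0.13 FPKM against 6.57, 2.40 and 0.29 FPKM. *Foxo1* was 15.2, 23.6 and 4.12 FPKM against 24.1, 20.04 and 2.01 FPKM. Their pairs went in both directions, with KO above WT in 1 of 3 pairs for *Igll1* and *Foxo1* and in 2 of 3 for *Pax5*.

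*Cd79a* was 20.4, 41.1 and 10.9 FPKM in WT CD115- CDPs and 63.9, 43.6 and 2.59 FPKM in KO. *Cd79b* was 17.7, 20.4 and 31.7 FPKM in WT and 30.3, 26.5 and 27.7 FPKM in KO. The partner genes parted here, since *Cd79b* was not low in number 3. *Rag1* was 1.63, 2.35 and 0.37 FPKM in WT and 5.02, 2.34 and 0.93 FPKM in KO. *Rag2* was 1.09, 0.95 and 0.87 FPKM in WT and 1.61, 0.94 and 1.65 FPKM in KO. Both *Rag* genes stayed at or below 5.02 FPKM, and their genotypes overlapped. No member had all KO libraries above all WT libraries or all below, where 7.68% of all genes were above and 10.6% below. Without the block the 95% interval of the log2 difference was -2.68 to 2.65 for *Cd79a* and -1.65 to 3.83 for *Vpreb1*, and with it the SE fell from 1.11 to 0.549 for *Cd79a* and from 1.04 to 0.230 for *Ebf1*. Without both libraries numbered 3, none of the members was called (0.491% of all genes higher and 1.17% lower), and the log2 fold changes were between 0.11 (*Pax5*) and 1.10 (*Vpreb1*), all of them above 0.

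**Figure D3:**
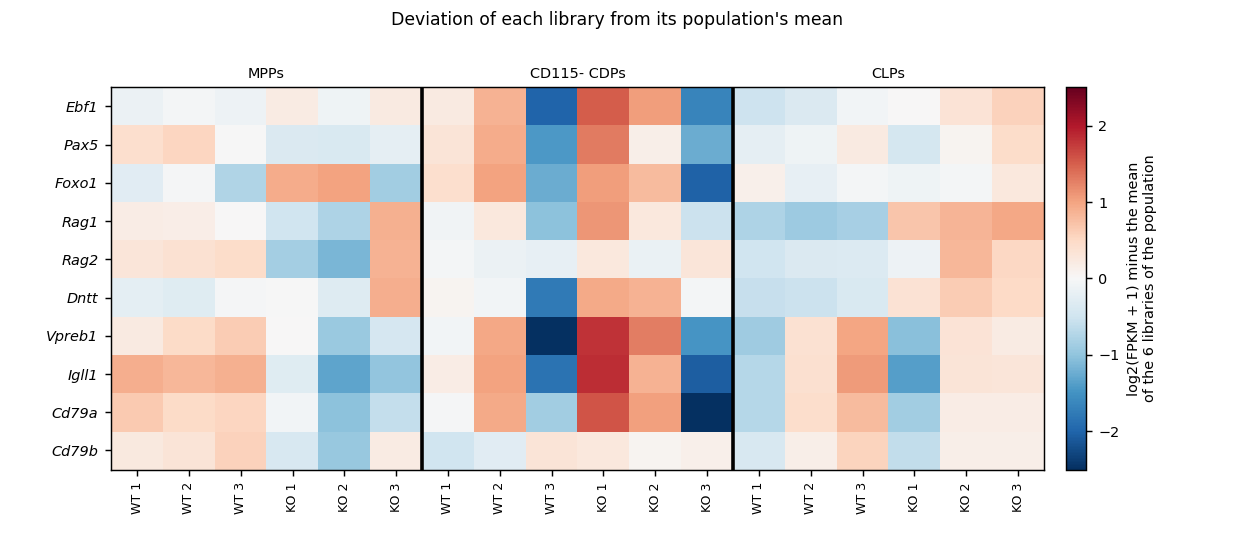
Deviation of each library from the mean of the 6 libraries of its population, in log2(FPKM + 1), for the 10 genes (red above, blue below, colours saturate at 2.5). Number 3 of CD115- CDPs is blue for most genes in both genotypes (not for *Cd79b*), number 1 is blue in *Vpreb1*, *Igll1*, *Cd79a* and *Cd79b* of both genotypes of CLPs, and KO 3 of MPPs differs in sign from KO 1 and KO 2 in *Rag1*, *Rag2* and *Foxo1*.

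Levels in the 3 populations are set side by side without a test, because each table was normalised on its own. In WT, all CLP libraries were above all MPP libraries for 10 of 10 members and above all CD115- CDP libraries for 9, the exception being *Foxo1*, where 23.7% and 19.6% of the genes that passed the filter in both tables were. In the libraries labelled KO the counts were 9 and 8, without *Foxo1* in both and without *Cd79a* in the second, where the shares of all such genes were 19.1% and 28.3%. *Igll1*, *Vpreb1* and *Pax5* had WT means in CLPs 17.8, 16.3 and 14.9 times those in MPPs, while *Dntt* and *Rag2* differed by 2.12 and 1.79 times. Within WT CLPs *Dntt* (1045 FPKM) was above all others. *Vpreb1* (139 FPKM), *Cd79a* (130 FPKM), *Igll1* (127 FPKM) and *Cd79b* (60.5 FPKM) followed, each overlapping the next. A gap without overlap separated them from *Pax5* (18.9 FPKM), *Rag1* (16.2 FPKM), *Ebf1* (14.1 FPKM) and *Foxo1* (12.4 FPKM), which overlapped their neighbours, and *Rag2* (5.24 FPKM) was lowest. In CLPs labelled KO the mean of *Rag1* (53.9 FPKM) moved past those of *Pax5* and *Cd79b* (51.7 FPKM), the latter within overlapping values. In WT MPPs the order was *Dntt*, *Cd79b*, *Cd79a*, *Vpreb1*, *Igll1*, *Foxo1*, *Rag2*, *Rag1*, *Pax5* and *Ebf1*, with overlap between neighbours from *Cd79a* to *Igll1* and from *Rag1* to *Ebf1*.

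Whether the difference between genotypes depended on the population was tested over all 18 libraries by the interaction of population and genotype. None of the members passed it by limma, where 304 of 12421 genes did (2.45%). *Rag1* (difference of log2 fold changes between CLPs and MPPs 1.92, SE 0.602) and *Rag2* (1.57, SE 0.534) had unadjusted p of 0.020 and 0.031 and were the only 2 under 0.05, with adjusted p of 0.210 and 0.254. Without the MPP library labelled KO 3 both passed (adjusted p = 0.034 and 0.0019). The share of all genes that passed in that setting was not counted, and 2.45% is not its background. With a replicate block, *Vpreb1* (adjusted p = 0.028) and *Igll1* (0.037) passed, as did 8.67% of all genes, but a pairing by number was not established in MPPs. The fall of *Igll1* in MPPs and the rise of *Rag1* in CLPs are therefore not shown to be particular to those populations by the fit without the block.

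The wider pathway was examined with a list of 73 other genes in 6 roles, of which 72 matched a row. In CLPs 70 were tested, and 1 was called higher and 4 lower, where 0.673% of all genes were called higher and 2.84% lower. The median log2 fold change of the list was -0.11 and that of all genes 0.01, and that of the 10 members was 0.07. *Cd22*, an inhibitory receptor of B cells that is also found on dendritic cells, was 9.72, 10.1 and 7.05 FPKM in WT and 0.67, 1.13 and 0.82 FPKM in KO (log2 fold change -2.40, adjusted p = 3.9e-05). *Ly6d*, a surface marker of B-biased CLPs that pre-pDCs carry too, was 725, 913 and 1168 FPKM in WT and 247, 260 and 246 FPKM in KO (-1.87, adjusted p = 0.00020). In both genes the KO libraries lay in a narrow band far below WT. *Pik3ap1*, the adaptor BCAP that couples the receptor to PI3K, was 80.2, 60.2 and 63.6 FPKM against 26.9, 22.2 and 24.3 FPKM (-1.43, adjusted p = 0.00022). *Polm*, a DNA polymerase related to TdT, was 1.08, 1.37 and 1.33 FPKM against 0.09, 0.16 and 0.11 FPKM (-1.01, adjusted p = 0.00095), and was not called without WT 2, WT 3 or KO 1. *Lax1*, an adaptor that dampens antigen receptor signals, was 31.2, 29.4 and 30.2 FPKM against 63.9, 66.9 and 81.3 FPKM (1.19, adjusted p = 0.00025).

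By role, the list of pre-B-cell receptor signalling had the most falls in CLPs: with the minimum fold dropped, 7 of its 14 tested genes were lower (*Cd22*, *Pik3ap1*, *Lyn*, *Ptpn6*, *Blnk*, *Syk* and *Cd72*) and 1 higher (*Btk*), with a median of -0.56. By the same rule 8.92% of all genes were lower and 5.41% higher, which is also the background of the counts of the other roles. Several of them act in the kinase cascade downstream of CD79 and are transcribed in dendritic and myeloid cells as well. *Vpreb3*, like *Vpreb1*, was lowest in number 1 of either genotype, at 38.5, 78.6 and 107 FPKM in WT and 22.2, 58.5 and 63.9 FPKM in KO, and passed as lower with the replicate block and not without it (adjusted p with the block = 0.0046). Of the 20 regulators tested, *Erg* and *Foxp1* were higher and *Lef1* lower. *Foxp1* is known to promote transcription of the *Rag* genes, and it was 40.0, 30.2 and 30.6 FPKM in WT and 49.7, 43.5 and 50.9 FPKM in KO. Of the 9 genes of cytokine receptors and STAT5, *Il2rg* and *Jak3*, which serve the interleukin 7 receptor, were higher. *Il2rg* was 36.4, 39.4 and 40.7 FPKM in WT and 70.0, 77.3 and 79.6 FPKM in KO, while *Il7r* overlapped (63.0, 32.6 and 33.9 FPKM against 37.6, 38.8 and 43.1 FPKM). Of the 12 genes of recombination cofactors and end joining, *Xrcc5*, *Xrcc6* (the Ku proteins that hold cut ends) and *Poll* were higher and *Polm* lower. Of the 8 genes of the FOXO and AKT axis, *Akt2* alone passed, lower.

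*Vpreb2*, the near copy of *Vpreb1*, was 18.02, 37.2 and 50.0 FPKM in WT CLPs and 37.6, 66.1 and 54.8 FPKM in KO. It was higher in KO in 3 of 3 pairs, at 2.09, 1.78 and 1.10 times, where *Vpreb1* was lower in 3 of 3. In CD115- CDPs *Vpreb2* was 9.0, 16.4 and 0.26 FPKM in WT and 28.8, 31.7 and 0.99 FPKM in KO, and with the replicate block it was called higher (log2 fold change 1.05, adjusted p = 0.030). The 3 other genes of the list called there with the block were lower: *Cd22* (-2.38), *Id3* (-1.22), an inhibitor of E proteins, and *Ly6d* (-1.02). With the block 0.376% of all genes were called higher and 1.46% lower. Leaving out both libraries numbered 3 called *Vpreb2*, *Cd22*, *Id3* and *Klf2* (2 higher and 2 lower), and *Ly6d* was not called. Of all genes, 0.491% were then called higher and 1.17% lower. *Id3* was 79.7, 70.7 and 21.1 FPKM in WT and 37.1, 26.4 and 8.63 FPKM in KO. Without the block 0 of the 70 genes tested in CD115- CDPs was called by limma, and 3 were higher and 8 lower at an unadjusted p under 0.05, where 4.54% of all genes were higher and 5.99% lower. The medians of the list and of all genes there were -0.12 and -0.07, and that of the members was 0.37. In MPPs 1 of 66 was called, where 1.32% of all genes were called lower and 0.162% higher, so the count is near the background (medians of the list, of all genes and of the members -0.14, -0.11 and -0.69). It was *Vpreb3*, a chaperone of the surrogate light chain, at 6.31, 4.06 and 6.17 FPKM in WT and 2.12, 1.52 and 0.87 FPKM in KO (-1.39, adjusted p = 0.032). That call was lost without any 1 WT library, without KO 2 and with scaling by median ratios, and with no minimum fold *Gfi1*, a repressor, was lower too. Without KO 3, 6 genes of the list were called in MPPs, 4 higher and 2 lower, where 2.96% of all genes were called higher and 4.43% lower.

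**Figure D4:**
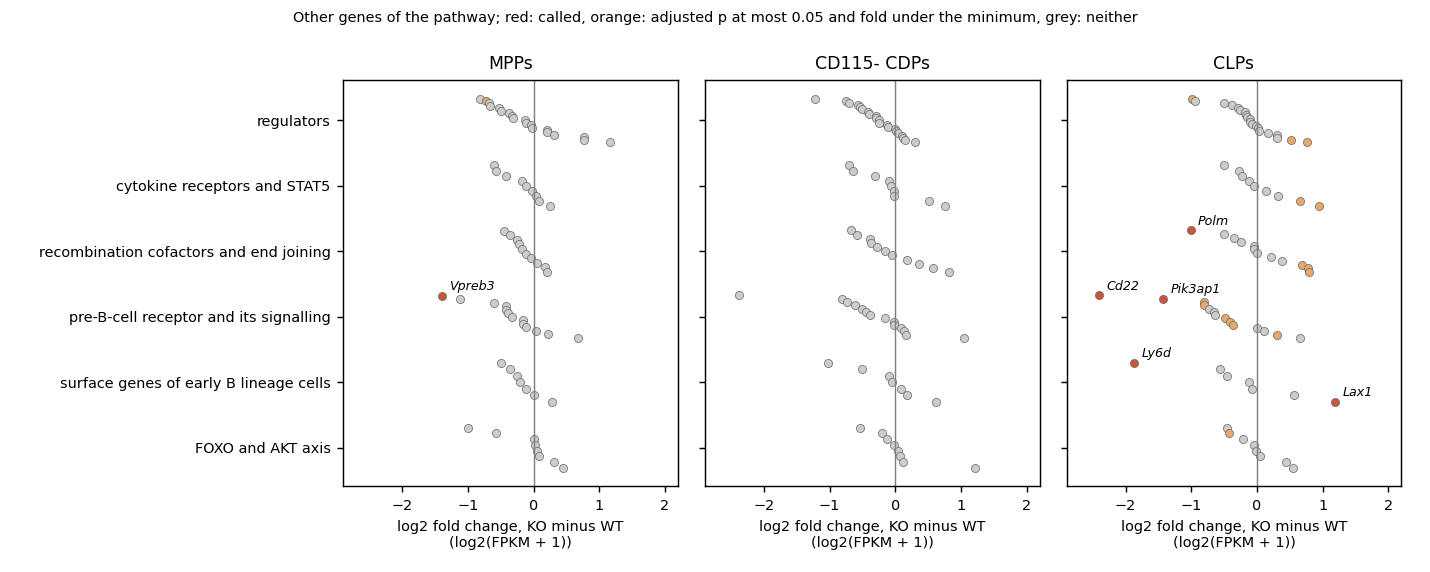
Log2 fold changes (KO minus WT on log2(FPKM + 1)) of the tested genes of the wider list, 1 point per gene, by role and population, with called genes named in red, orange for genes that passed the test under the minimum fold and grey for the rest. In CLPs *Cd22* (-2.40) and *Ly6d* (-1.87) lie farthest below 0 and *Lax1* (1.19) is the called gene above it.

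Markers of other cell types moved with genotype in the same libraries. All 11 genes of the pDC list were called lower in CLPs labelled KO, where 2.84% of all genes were called lower and 0.673% higher. Their summed level was 2724, 2668 and 2486 FPKM in WT and 457, 443 and 439 FPKM in KO. *Irf8* was the most abundant of them, and *Siglech* fell from 216, 145 and 146 to 9.11, 7.67 and 9.24 FPKM. Genes of other lists moved with genotype in CLPs as well. The T cell list had *Cd4* called lower, with sums of 9.61, 6.23 and 6.68 FPKM in WT and 1.92, 1.54 and 1.83 FPKM in KO. *Cd4* was the only gene of that list tested, and *Cd3e*, *Cd3g* and *Bcl11b* were below 0.5 FPKM. The erythroid list had *Hba-a1* and *Hbb-bs* called lower, with sums of 45.6, 27.0 and 29.5 FPKM in WT and 2.01, 6.42 and 5.20 FPKM in KO. *Sdc1* of the plasma cell list was called lower. With the replicate block 6 of 9 neutrophil granule genes were called lower, where 3.11% of all genes were called lower and 0.746% higher. Without it 0 were called by limma (6 lower and 1 higher at an unadjusted p under 0.05). Under the minimum fold, 2 of 6 MPP markers passed as higher, where 5.41% of all genes passed as higher with no minimum. The NK cell list had *Nkg7* called higher and *Ncr1* and *Gzma* below 0.5 FPKM, with sums of 20.6, 31.6 and 36.4 FPKM in WT and 67.5, 82.8 and 75.8 FPKM in KO. The part of these shifts in the values of *Rag1*, *Dntt* and the other members in CLPs was not tested.

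In MPPs 6 of 7 erythroid markers were called lower in the libraries labelled KO, where 1.32% of all genes were called lower and 0.162% higher. Their sum was 284, 284 and 252 FPKM in WT and 0.77, 1.16 and 8.15 FPKM in KO, led by *Hba-a1*. The neutrophil granule list had 3 of 9 called lower (*Ngp*, *Camp* and *Ltf*) and sums of 3481, 3589 and 3606 against 2584, 1565 and 1649 FPKM. The plasma cell list was lower as well, with *Jchain* called, at 3.45, 5.67 and 4.95 FPKM in WT and 0.53, 0.12 and 0.55 FPKM in KO. Of the 6 MPP markers, *Kit*, *Ly6a* and *Meis1* passed the test as lower, all under the minimum fold. With no minimum fold, 436 of the 12372 genes tested were lower. The part of these shifts in the lower *Igll1* of MPPs was not tested.

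In CD115- CDPs the neutrophil granule sum was 4510 and 4443 FPKM in the WT and KO libraries numbered 3 and 695 to 1063 FPKM in the other 4, with *Mpo* the most abundant. The plasma cell sum was 527 FPKM in WT 3 and at most 89.2 FPKM in the other 5 libraries, through *Jchain* (500 FPKM in WT 3). The pDC sum was 1332, 863 and 2016 FPKM in WT and 419, 440 and 587 FPKM in KO. Of its 11 genes, 8 were called lower with the replicate block and 1 without it, where 1.46% and 0.0654% of all genes were called lower. The part of these transcripts in the low values of the members in number 3 was not tested.

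**Figure D5:**
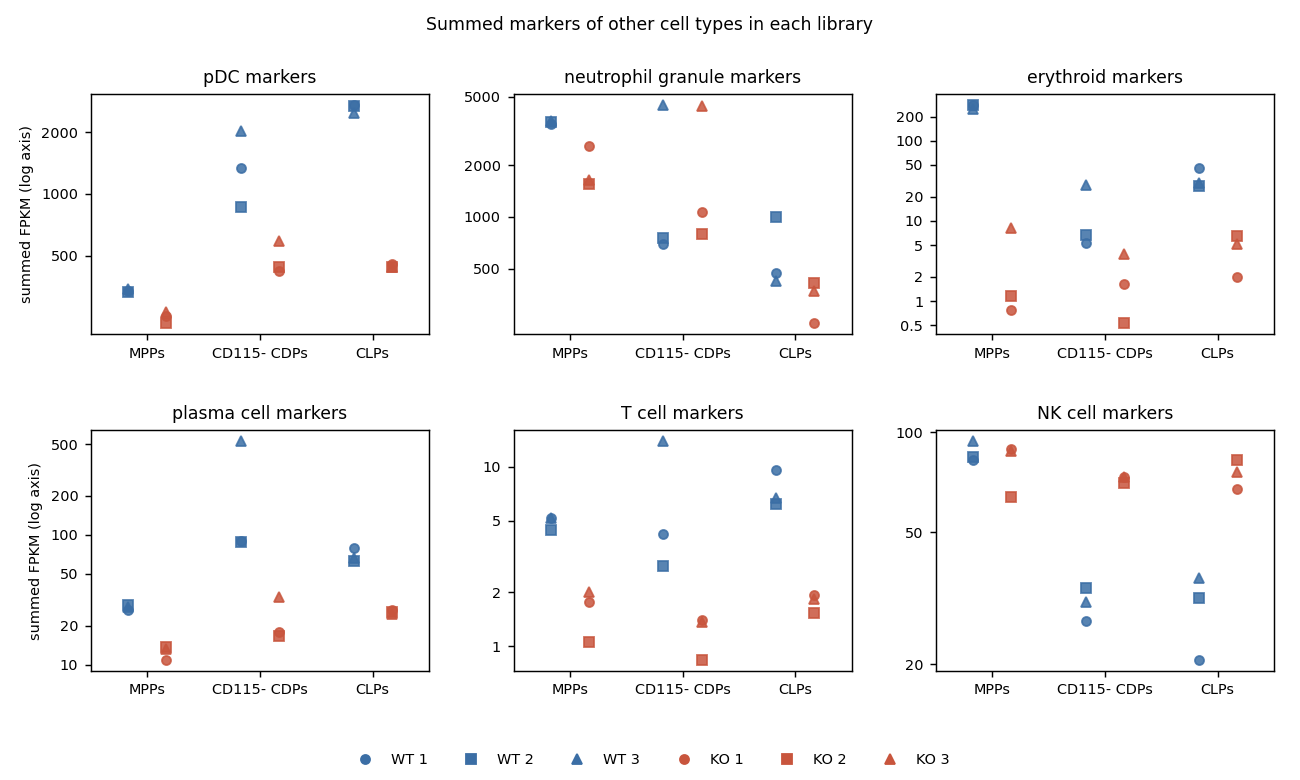
Summed FPKM (log axis) of marker lists of 6 other cell types in each library, with colours and symbols as for the members. The pDC sum separates the genotypes in CLPs, the erythroid sum separates them in MPPs, and the neutrophil granule sum is high in both libraries numbered 3 of CD115- CDPs.

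Across the members, the 4 genes of the pre-B-cell receptor varied as a set in CLPs, with Pearson's r from 0.981 to 0.996 over the 6 pairs of genes and 6 libraries on log2(FPKM + 1). *Rag1* and *Dntt* were correlated with each other (r = 0.98) and not with those 4 genes (r from -0.27 to -0.06). Both were higher in every KO library than in every WT library, so this r includes the difference between genotypes. In WT, *Rag1* was highest in number 1, where *Dntt* was lowest, and in KO both were lowest in number 1. In MPPs *Rag1* and *Rag2* had r = 0.94, and *Foxo1* ran opposite to *Rag2* (r = -0.96). In CD115- CDPs *Cd79b* had r from -0.28 to -0.17 with the other 3 genes of the receptor. These are descriptions over 6 libraries of both genotypes, which share depth and replicate numbers. Over all 18 libraries, the genes outside the lists whose levels were most like the mean of the standardised members, among the 11444 that averaged 1 FPKM or more, were *Gfra2* (r = 0.98), *5730488B01Rik* (0.98), *Cecr2* (0.97), *Agpat9* (0.97), *Pde2a* (0.97), *Bfsp2* (0.97), *Cd247* (0.97) and *Gfra1* (0.96). *Gfra2* and *Gfra1* encode co-receptors for neurotrophic factors of the GDNF family, *Pde2a* a cyclic nucleotide phosphodiesterase and *Cd247* the zeta chain of the T cell receptor complex. All 8 were higher in CLPs than in the other populations in mean FPKM. This follows from how they were chosen, since most members were highest in CLPs too. *Cd247* and *Gfra1* had means of 10.7 and 11.9 FPKM in WT CLPs and 17.9 and 20.2 FPKM in KO, while *Pde2a* had 68.4 and 57.3 FPKM.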

How the data were processed

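RNA-seq of 18 libraries was used, 3 per genotype in MPPs, CD115- CDPs and CLPs. Per the study's methods and processing notes, reads of 50 bases from 1 end were filtered by the authors, aligned with Bowtie2 2.2.5 and quantified per gene with RSEM 1.2.12. HISAT2 2.0.4 and mm10 are also named. The deposited values are FPKM, made by the authors, so no count test was run. Within each table, genes averaging 0.5 FPKM or more were tested on log2(FPKM + 1) with limma 3.58.1 (R 4.3.3; lmFit, eBayes with trend), with Benjamini-Hochberg adjustment over all genes tested. The interaction was an F test over 18 libraries with population intercepts. The scripts were tested on simulated data.

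Replicate numbers are those of the labels. Deviations of same-numbered libraries correlated above 0.1 in every pair of CD115- CDPs (0.437 to 0.79) and CLPs (0.131 to 0.40), so the numbers were treated as pairs there. Libraries of different numbers gave -0.784 to 0.663 and -0.399 to 0.234, which overlap those ranges. The mean over same numbers was 0.287 in CLPs and 0.331 in MPPs, where the lowest was 0.038. Pairing in CLPs thus rests on the limit of 0.1, and results with the block depend on it. Intervals and p-values measure the spread between these libraries.

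The members, gene lists, motifs and tests were chosen with earlier results of these data known. All members are named, with called genes of the wider list (at most 4 per role and population), *Vpreb2*, *Trim33*, marker genes and the 8 most alike genes; other genes of the wider list named by role were named for their adjusted p. Alternatives were a pseudocount of 0.1, no filter, TPM scaling, median ratio scaling, no minimum fold, the replicate block and leaving out each library. Leaving out both libraries of a number was added after seeing the data. A gene of the lists, and the sums that rest on it, are not reported here.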

Additional observations from a re-analysis of the deposited data

Results flagged for a closer look

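*Cd22* had an adjusted p of 0.0048 by limma in the interaction of population and genotype. It did not pass the filter on low values in MPPs, and on the scale of log2(FPKM + 1) a gene at that level cannot fall as far as in the other populations, so no difference in response is read from this value. *Cd22* was low in MPPs of both genotypes, at 0.42, 0.52 and 0.37 FPKM in WT and 0.11, 0.23 and 0.21 FPKM in KO, and had log2 fold changes of -2.38 in CD115- CDPs and -2.40 in CLPs.

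With the replicate block, *Vpreb1* (adjusted p = 0.028) and *Igll1* (adjusted p = 0.037) also passed limma's test of the interaction, as did 8.67% of all genes. That block also paired MPPs by number, where pairing was not established. *Vpreb1* had a log2 fold change of -0.89 in MPPs, one of 1.09 in CD115- CDPs and one of -0.33 in CLPs, and *Igll1* had -1.75, 0.43 and -0.50. Neither passed without the block (adjusted p = 0.581 and 0.557).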

How the results depend on the processing

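Of 350 recomputed fold changes of members (30 in the 3 populations), 325 kept their direction. The 25 that changed it belonged to 12 combinations of member and population, none of them called. Dropping the filter on low values and adding the replicate block leave the fold change itself as it was. Those settings kept the direction by construction and are counted among the 325. Scaling by median ratios moved *Cd79a* in CD115- CDPs to 0.04 on the log2 scale. Leaving out both libraries numbered 3, an alternative chosen after seeing the data, moved it to 0.84 and *Foxo1* there to 0.20. Leaving out 1 library at a time gave log2 fold changes from -0.75 to 0.077 for *Rag1* in MPPs. In CD115- CDPs it gave -0.25 to 1.58 for *Ebf1*, -0.55 to 0.79 for *Pax5*, -0.77 to 0.86 for *Foxo1*, -0.39 to 1.57 for *Igll1* and -0.80 to 1.29 for *Cd79a*. In CLPs it gave -0.15 to 0.29 for *Pax5*, -0.043 to 0.16 for *Foxo1*, -0.85 to 0.12 for *Vpreb1*, -0.98 to 0.059 for *Igll1*, -0.78 to 0.0077 for *Cd79a* and -0.46 to 0.043 for *Cd79b*. The cause of these changes was not tested.

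Counts of calls moved as follows. With no minimum fold, 4 members, 20 genes of the wider list and 1768 of all genes were called in CLPs, and 2 of the wider list and 475 of all genes in MPPs. Median ratio scaling left 0 of the wider list in MPPs, and no filter on low values left 3 of all genes in CD115- CDPs. With the replicate block, 1 member, 4 genes of the wider list and 224 of all genes were called in CD115- CDPs, and 2 members passed the interaction. Within a population, the block changed no other call of a member or gene of the wider list. In MPPs same-numbered libraries correlated at 0.038 to 0.482, so pairing was not established there, and the block left 1 member called there (*Igll1*, adjusted p = 0.032). Leaving out both libraries numbered 3 called 4 genes of the wider list and 203 of all genes in CD115- CDPs, and leaving out both numbered 1 called 3 members in CLPs. Leaving out 1 library at a time gave 0 to 5 members, 0 to 6 genes of the wider list and 63 to 914 of all genes in MPPs, 0 to 10 of all genes in CD115- CDPs, 1 to 3 members and 4 to 7 genes of the wider list in CLPs, and 0 to 2 members in the interaction.

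With 3 libraries a group, and values of *Ebf1*, *Pax5*, *Rag1* and *Rag2* at or below 4.5 FPKM in MPPs, changes of these genes that are smaller than their intervals were not detectable.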
